A study of Mus musculus with 6 samples.

Results

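Integrins are heterodimeric receptors, each made of an alpha and a beta subunit, that bind extracellular matrix proteins on the outside of the cell and connect to actin filaments on the inside. The connection is built at focal adhesions, where talin and kindlin proteins bind the tail of the beta subunit, linkers such as vinculin, alpha-actinin and filamin join it to actin, and focal adhesion kinase and its partners pass the signal on. Mouse embryonic stem cells (mESCs), which self-renew in culture and can form every tissue of the embryo, use integrins to attach to the culture surface.

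The 31 genes described here are 11 integrin alpha subunits, 5 beta subunits, 8 proteins that link integrins to actin or bind it, 4 genes of adhesion signalling (the caveolin Cav1 among them) and 3 genes of integrin-linked kinase (ILK), its partner parvin and a kindlin. They were chosen by symbol, and all 31 were found among the 43309 genes of the count table. RNA came from lines of J1 (129SV) mESCs, with 3 control lines of the genotype Zbtb24 wild-type (2lox/+) and 3 lines labelled Zbtb24 knockout (1lox/1lox). A 2lox allele carries the loxP sites, a 1lox allele is what recombination between them leaves, and + is the unmodified allele, so the control lines carry a loxP-bearing allele as well. All lines were grown with serum on gelatin and without feeder cells, each is a clone, and each gave 1 TruSeq Stranded mRNA library, made from 2 μg of RNA with 8 PCR cycles.

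The libraries held between 25042261 and 28838924 counted fragments. Zbtb24, the gene named in the labels, went against them, with 510, 512 and 489 counts in the control lines and 888, 925 and 1039 in the knockout-labelled libraries (log2 fold change 0.99 ± 0.05 SE, FDR 4.32e-23). These counts cover the whole gene, including any part that the 1lox allele keeps. From them a swap of the labels and transcript kept by the 1lox allele cannot be told apart, and neither was tested. The 3 libraries are therefore called labelled knockout or knockout-labelled throughout. Every direction below is drawn from that label and would reverse if the labels were swapped. The fit had a coefficient of variation of 2.00% between the libraries of a group. With it edgeR's quasi-likelihood test called 11697 of 16823 genes tested at an FDR of at most 0.05, or 69.5% of them. Of the genes tested, 34.4% were higher and 35.2% lower than in the control group. A call was therefore the usual outcome for a gene in these data, and the sizes of the differences are given beside each count. Of the lists of cell type markers, those of embryonic stem cells were at 5884 to 5966 summed cpm (the fragments counted for a gene, scaled to a common library size) in the control libraries and 7046 to 7123 in the knockout-labelled libraries, and no marker of the 11 was at the floor of 3 counts. Of the 11 markers 8 rose and 3 fell, from -0.77 for Zfp42 to 1.90 for Klf4 on the log2 scale.

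The start regions of 5 of the genes are shown first, to set their letters beside the size of their difference. Cav1 had the largest fall of the 30 genes tested, Zyx the largest among the actin linkers, Itgb1 is the most abundant beta subunit, Fermt2 was 1 of the 2 genes that rose, and Vcl was one of the linkers with a small fall. The sequences are those of RefSeq on GRCm38.p6, from 250 bases before to 50 bases after the start, on the strand of the gene. Cav1 lies at chr6:17306085-17306384 (+), Zyx at chr6:42349578-42349877 (+), Itgb1 at chr8:128685404-128685703 (+), Fermt2 at chr14:45530016-45530315 (−) and Vcl at chr14:20929148-20929447 (+). Capitals mark matches on either strand to the CArG box of serum response factor (SRF), to the TEAD letters GGAATG and to the AP-1 letters TGANTCA, all of them factors known for cytoskeletal and adhesion genes.
Cav1: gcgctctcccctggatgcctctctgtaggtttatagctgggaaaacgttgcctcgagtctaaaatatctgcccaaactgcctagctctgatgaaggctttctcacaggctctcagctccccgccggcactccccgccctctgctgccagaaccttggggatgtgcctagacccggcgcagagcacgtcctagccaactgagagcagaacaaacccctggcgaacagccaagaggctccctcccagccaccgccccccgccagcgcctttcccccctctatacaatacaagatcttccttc
Zyx: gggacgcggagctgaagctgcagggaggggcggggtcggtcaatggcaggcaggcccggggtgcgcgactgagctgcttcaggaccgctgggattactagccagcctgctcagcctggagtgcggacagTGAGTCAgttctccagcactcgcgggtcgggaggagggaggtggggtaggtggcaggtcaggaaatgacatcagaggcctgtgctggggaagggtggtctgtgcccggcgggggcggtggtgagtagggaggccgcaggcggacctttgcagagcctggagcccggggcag
Itgb1: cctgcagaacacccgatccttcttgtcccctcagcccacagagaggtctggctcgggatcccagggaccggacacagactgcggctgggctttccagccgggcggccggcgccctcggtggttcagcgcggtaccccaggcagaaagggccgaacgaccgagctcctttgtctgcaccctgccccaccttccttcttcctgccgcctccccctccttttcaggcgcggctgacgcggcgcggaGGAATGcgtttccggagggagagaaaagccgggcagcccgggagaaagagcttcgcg
Fermt2: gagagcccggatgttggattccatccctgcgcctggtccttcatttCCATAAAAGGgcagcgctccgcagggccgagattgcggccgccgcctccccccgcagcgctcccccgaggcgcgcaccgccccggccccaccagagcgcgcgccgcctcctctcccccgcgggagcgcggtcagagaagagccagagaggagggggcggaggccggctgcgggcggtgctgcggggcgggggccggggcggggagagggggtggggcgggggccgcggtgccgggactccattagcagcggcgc
Vcl: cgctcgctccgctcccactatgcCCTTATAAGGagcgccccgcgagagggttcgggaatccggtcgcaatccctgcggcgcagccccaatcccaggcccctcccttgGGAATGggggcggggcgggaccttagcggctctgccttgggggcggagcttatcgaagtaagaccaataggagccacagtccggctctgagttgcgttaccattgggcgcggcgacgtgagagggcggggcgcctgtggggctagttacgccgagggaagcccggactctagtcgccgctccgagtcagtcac

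The Cav1 window held no match to these 3 motifs. In Zyx an AP-1 match began at position -121 from the start, in Itgb1 a TEAD match at -7, in Fermt2 a CArG box at -204, and in Vcl a CArG box at -227 and a TEAD match at -143. None of these matches overlapped a match to another motif searched. A start region was found for 23 of the 31 genes, with 27 windows in all. A CArG box stood in 2 of them (7.41%), those of Vcl and Fermt2, and in 1.63% of all 32841 windows of the same length. TEAD letters stood in 4 (14.8%, against 14.7% of all windows) and AP-1 letters in 4 (14.8%, against 7.81%). Of the 27 windows 5 lie over 1000 bases inside the annotated gene, among them those of Itga9 and Itga3 that held AP-1 letters and that of Flna with TEAD letters. The GC box letters GGGCGG, a motif of many CpG-rich starts, stood in 18 (66.7%, against 35.7%). The letters CAGGACCT, searched as a ZBTB24 motif, stood in none of the 27 (0%) and in 1.99% of all windows. The genes with a CArG box were 1 that rose and 1 that fell by less than 0.5 on the log2 scale, and those with TEAD letters were Actn4, Flna, Itgb1 and Vcl, which fell by between 0.10 and 0.70.

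Most of the 31 genes were lower in the libraries labelled knockout. Of the 30 genes tested, those that reached 10 counts in any library, 25 fell, 2 rose (Itga9 and Fermt2) and 3 did not pass (Itga6, Itga7 and Pxn). Of the 25, Itga4, Itga11 and Cav1 reached 10 counts in control libraries only, and could be tested only because they were higher there. Without these 3, chosen after the data were examined, 22 of 27 fell, with a median log2 fold change of -0.36. Itga2, a subunit of a collagen receptor, was not tested, with 5, 1 and 3 counts in the control lines and 2, 2 and 1 in the knockout-labelled libraries. The groups did not overlap in 27 of the 30, Itga4, Itga11 and Cav1 among them, where 71.5% of all genes tested did not overlap. The median log2 fold change was -0.49 over the 30 genes and -0.0004 over all genes tested. A call with a difference of at least 1 on the log2 scale was made for 11 of the 30, 10 lower and 1 higher, and for 17.0% of all genes tested (11.8% lower and 5.21% higher), while 11 of the 27 called genes differed by less than 0.5. Itga4, Itga11 and Cav1 are among the 10 lower, and without them 8 of 27 genes tested reached a difference of 1. The 31 genes together took 0.378% ± 0.0013 (SD, n = 3) of all counts in the control libraries and 0.300% ± 0.0034 in the knockout-labelled libraries. No member lies on chromosome 1, where the median of all 980 genes was 0.50 (mean count of 10 or more). On chromosome 8, which holds Itgb1 and Bcar1, the median of all 819 genes was -0.20. In the part around these 2 genes, the median of the 266 genes beyond 100 Mb was -0.05.

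**Figure D1:**
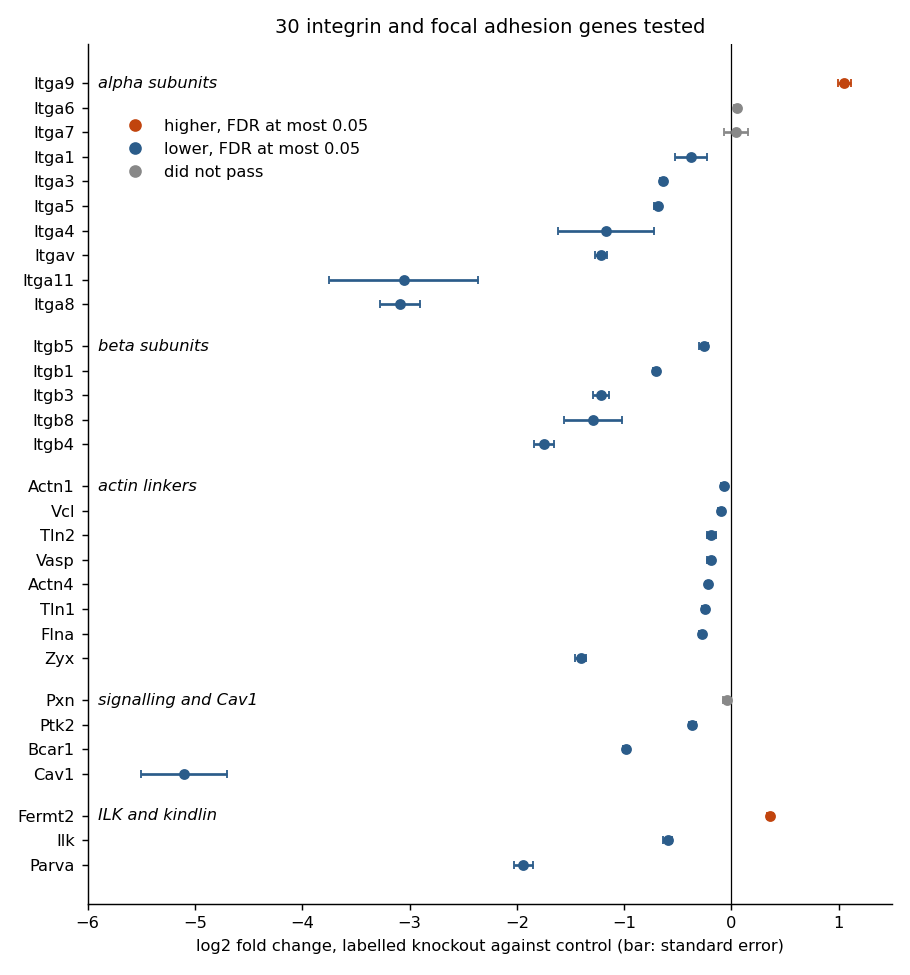
Log2 fold change of the 30 genes tested, libraries labelled knockout against control libraries (x axis, with the standard error as a bar), grouped by role on the y axis and coloured by call. Only Itga9 and Fermt2 lie to the right of 0 with an FDR of at most 0.05, and Cav1 lies farthest to the left at -5.10.

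The alpha subunits decide which matrix protein a receptor binds. Of the 10 tested, 7 fell, 1 rose and 2 did not pass, with a median log2 fold change of -0.66. Itga3, the partner of beta 1 in a laminin receptor, was at 144.1, 143.8 and 145.4 cpm in the control lines and 89.87, 94.68 and 93.34 in the knockout-labelled libraries (log2 fold change -0.64 ± 0.03 SE, FDR 4.16e-25). Itga5, which with beta 1 forms the main fibronectin receptor, was at 82.02, 83.09 and 82.18 cpm and then at 49.4, 51.63 and 52.53 (-0.69 ± 0.03, FDR 1.82e-23). Itgav, the alpha subunit of the vitronectin receptors, was at 35.47, 35.01 and 33.0 cpm and then at 13.29, 16.09 and 15.2 (-1.22 ± 0.06, FDR 5.85e-25). In all 3 the lowest control library stood above the highest library labelled knockout, and the difference was many times the spread within a group. Groups were also apart in 71.5% of all genes tested.

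Itga8 encodes a subunit that with beta 1 binds RGD ligands such as nephronectin, and its gene lies at chr2:12106632-12301922. It was at 4.194, 4.586 and 4.262 cpm in the control libraries and at 0.3063, 0.6499 and 0.5668 in the knockout-labelled libraries, from 118, 126 and 117 counts against 8, 16 and 16. The log2 fold change was -3.09 ± 0.19 SE (FDR 6.06e-20), and the ratio of the summed counts was 8.58 with an exact 95% counting interval of 6.18 to 12.2. Itga9, whose product binds tenascin C and other ligands with beta 1, was the 1 alpha subunit that rose. It was at 12.23, 11.06 and 13.11 cpm in the control libraries and at 24.66, 25.06 and 25.68 in the knockout-labelled libraries (log2 fold change 1.05 ± 0.06 SE, FDR 2.99e-21). The groups were apart in both genes, in opposite directions, where 71.5% of all genes tested had groups apart.

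Itga6, the subunit of the laminin receptors that is abundant in stem cells, did not pass the test. It was at 156.0 ± 3.56 cpm in the control libraries and 161.9 ± 5.16 in the knockout-labelled libraries (SD, n = 3), and the 95% interval of its log2 fold change was -0.0012 to 0.11. Itga7, another laminin-binding subunit best known from muscle, was at 4.02 ± 0.39 and 4.14 ± 0.25 cpm, with an interval of -0.18 to 0.27. The interval of Itga6 was thus narrow and that of the less abundant Itga7 wider.

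The other alpha subunits had few counts. Itga1, of a collagen receptor, had 85, 66 and 76 counts in the control lines and 58, 58 and 50 in the knockout-labelled libraries (log2 fold change -0.38 ± 0.15 SE, FDR 0.0237), and 3.68% of its merged exon bases are shared on the same strand with Gm49395. Itga4, which binds fibronectin and VCAM1, had 11, 10 and 15 against 4, 4 and 7 counts, a ratio of 2.28 with a counting interval of 1.22 to 4.48 (FDR 0.0188). Itga11, a collagen receptor subunit of fibroblasts, had 7, 10 and 12 counts against 1 in each library labelled knockout, a ratio of 9.19 with a counting interval of 2.85 to 47.1 (FDR 1.35e-04). The calls of Itga1 and Itga4 were lost with DESeq2 (adjusted p 0.115 and 0.0737).

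The beta subunits carry the tail that talin and kindlin bind, and all 5 fell, with a median log2 fold change of -1.22. Itgb1, the partner of most alpha subunits listed here, was at 336.4, 328.9 and 336.4 cpm in the control lines and 199.7, 204.0 and 211.0 in the knockout-labelled libraries. Its log2 fold change was -0.70 ± 0.03 SE (FDR 6.27e-29), which is a 1.63-fold higher level in the control libraries. Itgb3, a partner of Itgav in a vitronectin receptor, was at 15.71, 16.96 and 15.88 cpm and then at 7.008, 7.068 and 6.837 (-1.22 ± 0.07, FDR 2.48e-20). Its difference was close to that of Itgav, and its values within a group lay close together.

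Itgb4, the subunit of hemidesmosomes, which anchor epithelia to laminin through keratin, was at 11.62, 13.83 and 12.38 cpm in the control lines and 3.638, 3.859 and 3.755 in the knockout-labelled libraries (log2 fold change -1.75 ± 0.09 SE, FDR 2.17e-22). Itgb8, a partner of Itgav that binds latent TGF-beta, had 33, 33 and 30 counts against 11, 16 and 10 (-1.29 ± 0.27, FDR 4.20e-05). Itgb5, another partner of Itgav that binds vitronectin, differed least, at 40.8 ± 1.29 and 34.1 ± 1.69 cpm (SD, n = 3; -0.26 ± 0.04 SE, FDR 8.12e-07). The groups did not overlap in any of the 5 beta subunits, nor in 71.5% of all genes tested.

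**Figure D2:**
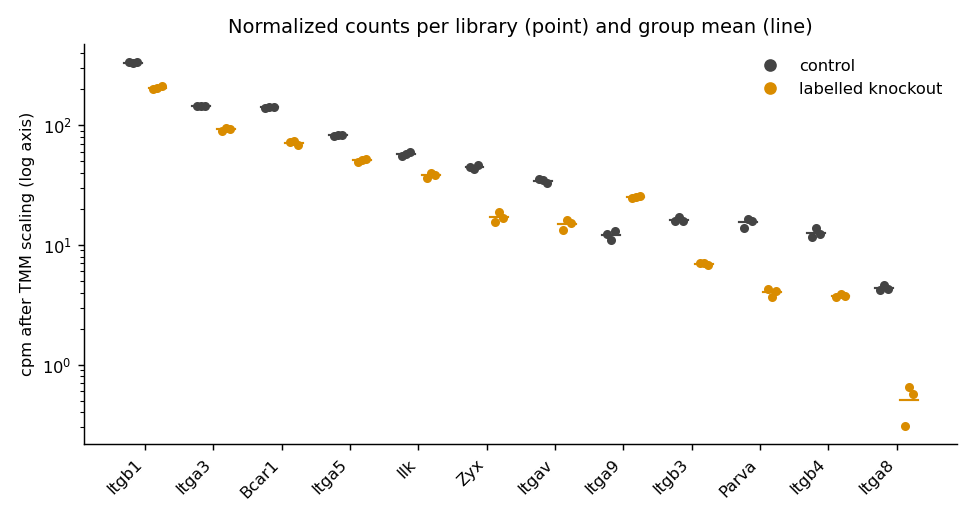
Level in cpm after TMM scaling (y axis, log scale) of the 12 genes whose mean count was 50 or more and whose called difference was 0.5 or more on the log2 scale, from the highest to the lowest (x axis). Points are libraries and lines are group means of 3, with control in grey and labelled knockout in orange. The groups are apart in each gene, which the choice by a called difference made likely, and in 71.5% of all genes tested. Itga9 is the one gene where the orange points lie above.

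Levels of different genes were compared as FPKM, the fragments per kb of the longest transcript scaled to library size. Among the alpha subunits of the control libraries Itga6 was at 36.2 ± 0.82 FPKM, Itga3 at 29.7 ± 0.18, Itga5 at 18.7 ± 0.13 and Itgav at 4.89 ± 0.19, with Itga9 at 1.73 ± 0.15, Itga7 at 1.00 ± 0.10 and the others below 1 (SD, n = 3). In the libraries labelled knockout the first 3 kept their order, at 37.6 ± 1.2, 19.1 ± 0.51 and 11.6 ± 0.37 FPKM, and Itga9 at 3.58 ± 0.07 stood above Itgav at 2.11 ± 0.20. Neighbours in these orders that are named here differed by more than their SDs. The order of the first 3 depends on the transcript length used: per merged exon length Itga3 was first in the control libraries, at 25.3 ± 0.15 FPKM, with Itga6 at 17.3 ± 0.39 and Itga5 at 16.7 ± 0.12, and in the knockout-labelled libraries Itga6 was at 17.9 ± 0.57 and Itga3 at 16.2 ± 0.44. Among the beta subunits Itgb1 was at 87.5 ± 1.14 FPKM and then at 53.7 ± 1.49, and Itgb5, the next, at 12.4 ± 0.39 and 10.4 ± 0.51. Itgb3 and Itgb4 were at 2.80 ± 0.12 and 2.03 ± 0.18 FPKM in the control libraries, and at 1.21 ± 0.02 and 0.604 ± 0.02 in the knockout-labelled libraries.

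The makeup of the subunit pool was compared as shares. Of the summed FPKM of the 11 alpha subunits, Itga6 took 38.8% ± 0.59 in the control libraries and 49.9% ± 0.53 in the knockout-labelled libraries (SD, n = 3). The share of Itga3 was 31.8% ± 0.42 and then 25.3% ± 0.40, and that of Itgav 5.24% ± 0.16 and then 2.80% ± 0.21. Itga5 took 19.78%, 20.12% and 20.11% in the control lines, against 15.38%, 15.42% and 15.43% in the others. The share of Itga9 was 1.85% ± 0.17 and then 4.76% ± 0.06. The summed alpha level was 93.3 ± 0.71 FPKM in the control libraries and 75.2 ± 2.23 in the knockout-labelled libraries, and that of the beta subunits was 104.9 ± 0.53 and then 65.96 ± 1.65. Among the beta subunits Itgb1 took 83.4% ± 0.72 and then 81.4% ± 0.65, and Itgb5 11.9% ± 0.42 and then 15.7% ± 0.70. A share also depends on the other subunits of its sum, and both sums fell. Itga6 itself did not pass the test, and Itgb5 fell by 0.26 on the log2 scale while its share rose. For each of these shares and sums the groups did not overlap, and the two-sided exact permutation test gave p = 0.1, the smallest that 3 libraries against 3 allow, or 0.116 after Benjamini-Hochberg adjustment over the 22 shares, sums and ratios tested.

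**Figure D3:**
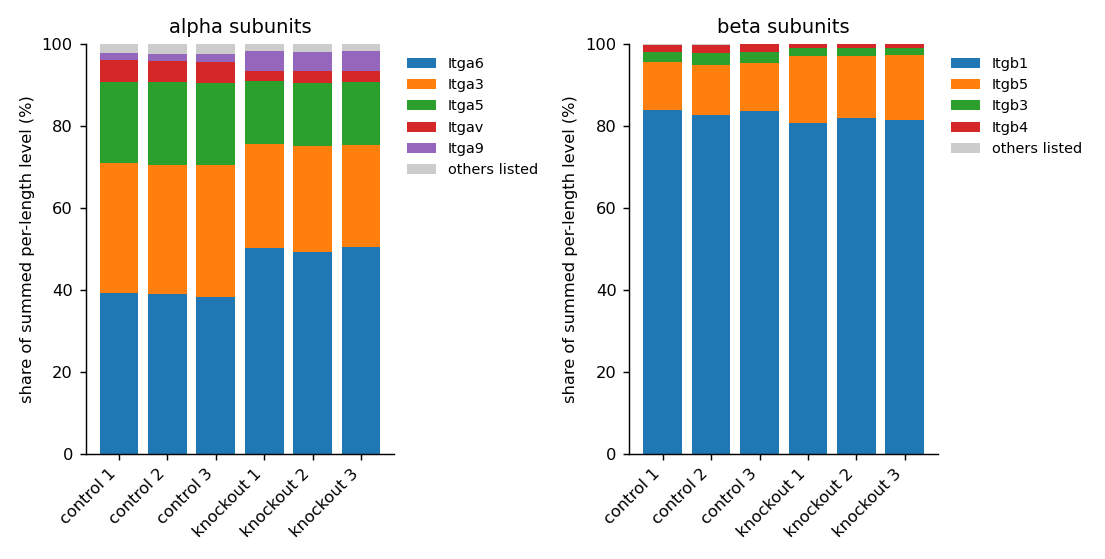
Share of each integrin subunit in the summed FPKM of the 11 alpha subunits (left) or 5 beta subunits (right), in percent (y axis), as a stacked bar for each library (x axis, where knockout means labelled knockout). The Itga6 part grows from 38.8% to 49.9% on average, while the Itgb1 part stays above 80.7% in every library. Itga6 itself did not pass the test, and the summed alpha level was lower in the libraries labelled knockout.

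Within a library, the ratio of 2 genes does not depend on the scaling. The Itga5 to Itga6 ratio per length was 0.516 in the control libraries and 0.309 in the knockout-labelled libraries, a difference of -0.74 on the log2 scale, and that of Itgb1 to Itgb5 was 7.04 and 5.18, a difference of -0.44 (exact permutation p = 0.1 each, two-sided). The ratio of the alpha-actinins, Actn1 to Actn4, was 0.422 and 0.467 (log2 difference 0.14, exact permutation p = 0.1). The ratio of the talins, Tln1 to Tln2, was 6.37 and 6.11, and here the groups overlapped (log2 difference -0.06, exact permutation p = 0.2).

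The proteins that link integrins to actin numbered 8, of which 6 were among the 15 most abundant of the 30 genes tested. All 8 fell, 7 of them by less than 0.3 on the log2 scale and Zyx by more, with a median log2 fold change of -0.20. Talins bind the beta tail and pull on it, and Tln1 was at 180.6 ± 4.48 cpm in the control libraries and 152.2 ± 5.37 in the knockout-labelled libraries (SD, n = 3; log2 fold change -0.25), with -0.19 for Tln2. Vinculin, which reinforces the talin to actin bond, was at 203.4 ± 7.17 and 189.9 ± 5.02 cpm (-0.10, FDR 1.38e-03). Filamin A, a crosslinker of actin that also binds beta tails, was at 733.3 ± 11.0 and 605.2 ± 8.75 cpm (-0.28). The alpha-actinins, which bundle actin, differed by -0.07 (Actn1, FDR 8.79e-03) and -0.21 (Actn4), and Vasp, which speeds the growth of actin filaments, by -0.19. The 7 linkers named so far had FDR values between 2.39e-15 and 8.79e-03.

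Zyxin, a LIM protein that is recruited to stretched actin bundles, stood apart from these 7. Zyx, at chr6:42349630-42360213 (+), was at 45.1, 42.8 and 46.95 cpm in the control lines and 15.66, 18.69 and 16.72 in the knockout-labelled libraries (log2 fold change -1.40 ± 0.05 SE, FDR 1.13e-28), a level 2.65-fold higher in the control libraries. The median of the 231 genes in the first 60 Mb of chromosome 6, where Zyx and Cav1 lie, was 0.004. Over all 694 genes of that chromosome it was 0.16.

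Focal adhesion kinase, paxillin and the scaffold p130Cas form the signalling core of the adhesion. Bcar1, which encodes p130Cas, was at 139.4, 143.2 and 141.8 cpm in the control lines and 73.02, 74.13 and 67.73 in the knockout-labelled libraries (log2 fold change -0.98 ± 0.03 SE, FDR 3.55e-31). Ptk2, which encodes focal adhesion kinase, was at 95.3 ± 2.44 and 74.0 ± 1.04 cpm (SD, n = 3; -0.36 ± 0.03 SE, FDR 1.43e-14). Pxn, which encodes the adaptor paxillin, was at 66.1 ± 1.29 and 64.1 ± 1.73 cpm and did not pass (FDR 0.265), with an interval of the log2 fold change from -0.11 to 0.02. The values of these 3 genes ran from a level nearly 2.0-fold higher in the control libraries for Bcar1 to an interval that holds 0 for Pxn.

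Cav1 encodes caveolin 1, the coat protein of caveolae, which also binds integrins and is phosphorylated by Src kinases. It had 45, 57 and 55 counts in the control lines and 0, 2 and 2 in the knockout-labelled libraries. The ratio of the summed counts, scaled by library, was 37.3 with an exact 95% counting interval of 14.3 to 139.0 (log2 fold change -5.10 ± 0.40 SE, FDR 6.02e-16). Even in the control libraries the level was low, at 0.689 FPKM, where Itgb1 was at 87.5. Cav1 reached the minimum of 10 counts in the control libraries only, so it could be tested only because it was higher there.

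ILK is a pseudokinase that holds parvin at the beta tail, and kindlins activate integrins together with talin. Ilk was at 55.58, 57.57 and 59.59 cpm in the control lines and 36.3, 39.77 and 38.26 in the knockout-labelled libraries (log2 fold change -0.60 ± 0.04 SE, FDR 1.93e-18). Parva, which encodes alpha-parvin, the actin-binding partner of ILK, was at 13.93, 16.6 and 15.84 cpm and then at 4.25, 3.656 and 4.144 (-1.94 ± 0.09, FDR 7.96e-25). Fermt2, which encodes kindlin 2, rose, with 120.4, 121.9 and 115.0 cpm in the control lines and 152.3, 151.3 and 154.9 in the knockout-labelled libraries (0.36 ± 0.03, FDR 5.58e-16). The groups were apart in all 3 genes, as they were in 71.5% of all genes tested. Parva was 3.83-fold higher in the control libraries and Fermt2 1.28-fold higher in the knockout-labelled libraries.

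Within the 30 genes tested, the larger differences lay among the less abundant ones. The same comparison was not made over all genes tested, so it is not known whether this is particular to the 30. Ordered by the mean FPKM of both groups, the upper 15 genes, between 15.1 and 176 FPKM, had a median log2 fold change of -0.25, and none reached a difference of 1. The lower 15, between 0.0318 and 11.4 FPKM, had a median of -1.22, and 11 reached 1. Spearman's rho between level and log2 fold change was 0.538 over the 30 genes, which share the same libraries and are not independent replicates. Without Cav1, Itga4 and Itga11, which entered only through the control libraries, rho was 0.419 over 27 genes, and 8 of the 12 genes left in the lower part reached 1, with a median of -1.22. Genes that fell numbered 12 in the upper part and 13 in the lower part.

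**Figure D4:**
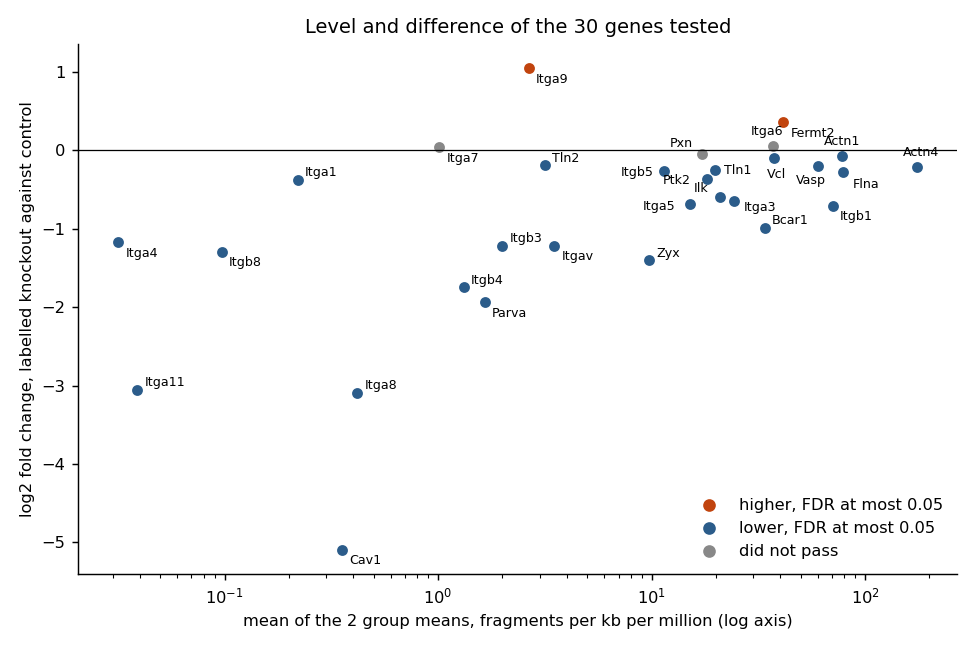
Log2 fold change (y axis, libraries labelled knockout against control) against the mean FPKM of both groups (x axis, log scale) for the 30 genes tested, coloured by call. Genes above 15.1 FPKM lie between -0.98 and 0.36, and differences of at least 1 in size are confined to the genes up to 11.4 FPKM.

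Of the 123 other genes listed around these 31, 115 were tested, of which 66 fell, 30 rose and 19 did not pass, with a median log2 fold change of -0.18. A called difference of at least 1 was found for 27 of them, 23 lower and 4 higher. Over all genes tested 35.2% fell and 34.4% rose. A called difference of at least 1 was found for 17.0% of all genes, 11.8% lower and 5.21% higher, so these leaned lower too. The counts of each list below stand against the same shares. The ligands, the matrix proteins that integrins bind, had 14 that fell, 6 that rose and 1 that did not pass of 21 tested, with a median of -1.52. Thbs1, which encodes thrombospondin 1, was at 94.6 ± 0.81 cpm in the control libraries and 2.84 ± 0.64 in the knockout-labelled libraries (SD, n = 3; log2 fold change -5.05), and Col1a1, of fibrillar collagen, at 41.1 ± 2.18 and 3.93 ± 0.49 (-3.39). Fn1, the fibronectin gene on chromosome 1, was higher in the libraries labelled knockout, at 675.3 ± 22.2 and 1136 ± 15.95 cpm (0.75), as was Lama1, a laminin chain of the embryonic basement membrane (0.69). The 10 integrin subunits outside the 31, mostly known from blood cells, had 7 tested, of which 4 rose, 2 fell and 1 did not pass. Itgb7 differed by 0.23 and Itgal by -0.31. Among the genes that fell, the ligands Tnc and Postn and the subunit Itgb2 reached 10 counts in control libraries only. They could be tested only because they were higher there.

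Regulators of integrin activity had 6 that rose, 5 that fell and 4 that did not pass of 15. Fermt1, the epithelial kindlin, fell by 2.55 on the log2 scale, from 8.57 ± 0.65 to 1.46 ± 0.16 cpm (SD, n = 3), where its paralogue Fermt2 rose. Tns1 (1.92, on chromosome 1) and Kank4 (1.41) rose, and Tns2 fell by 0.52. Of the 5 ILK partners Parvb, the paralogue of Parva, rose by 0.38 and Rsu1 by 0.09, while Lims1, which encodes the LIM protein PINCH1, fell by 0.24, and 2 did not pass. The call of Rsu1 was lost with DESeq2 (adjusted p 0.119).

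In the list of FAK, Src and Cas signalling 16 of 24 fell, 5 rose and 3 did not pass, with a median of -0.17. The paxillin relative Tgfb1i1, which encodes Hic-5, fell by 3.83 on the log2 scale, from 9.60 ± 0.62 to 0.667 ± 0.14 cpm (SD, n = 3), where Pxn did not pass, and the Cas family member Efs fell by 1.34. Elmo2 rose by 0.40 and the kinase gene Yes1 by 0.34. Of the 22 other actin linkers 15 fell, 5 rose and 2 did not pass, with a median of -0.39. Lpp, of the zyxin family, fell by 1.61 and Pdlim7 by 1.40, while Fblim1, which encodes the filamin and kindlin partner migfilin, rose by 1.15 and the Vasp relative Enah by 0.62 (on chromosome 1).

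Of the 15 actomyosin genes 9 fell, 2 rose and 4 did not pass. Myl9, a myosin light chain of contractile cells, fell by 2.00 on the log2 scale and the formin gene Diaph1 by 0.61, while Myh10 rose by 0.22 and Cdc42 by 0.06, a call that DESeq2 did not make (adjusted p 0.0520). Of the 6 caveolar genes tested besides Cav1, 4 fell and 2 did not pass. Ehd2, of the caveolar neck, fell by 1.97, and Cavin1, the main cavin, by 0.11, with groups that overlapped. Cavin1 lost its call without knockout replicate 2 (log2 fold change -0.06, FDR 0.175) or control replicate 2 (FDR 0.0577). Of the 30 genes in these lists that rose, 4 lie on chromosome 1, where 6 were tested.

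Of the markers of other cell types, those of fibroblasts, smooth muscle, trophectoderm and neural cells had lower sums in the knockout-labelled libraries. The sums of primitive endoderm and mesoderm markers overlapped between the groups. The 8 fibroblast markers were at 60.06 to 62.58 cpm summed in the control libraries and 12.36 to 13.04 in the knockout-labelled libraries, with 6 of 7 tested lower, a median of -3.15, and Lum at the floor in every library. Postn, Dcn and Col3a1, among the 6, reached 10 counts in control libraries only, and could be tested only because they were higher there. Of the others tested, Col1a1 differed by -3.39, Col1a2 by -3.15, Thy1 by -0.76 and Pdgfrb, which did not pass, by -0.16. The 5 smooth muscle markers were at 173.8 to 183.9 and then 15.89 to 17.46 cpm, with 4 lower. The 5 trophectoderm markers were at 23.92 to 26.42 and then 9.07 to 10.89 cpm, with 3 lower and 1 higher. Those of primitive endoderm were at 11.73 to 12.96 and 10.68 to 12.92 cpm, with 3 lower and 1 higher of 7, and those of mesoderm at 10.02 to 10.41 and 9.92 to 10.91, with 1 lower and 2 higher of 4 tested. Sox17 and Foxa2, of the 3 lower in primitive endoderm, also reached 10 counts in control libraries only. The 4 neural markers were at 280.6 to 286.0 and 262.2 to 270.1 cpm, with 2 lower and 2 higher, and Nes was at 95.08 cpm in the control libraries and 18.95 in the others (log2 fold change -2.33). Pax6 fell by 0.44, while Sox1 rose by 1.23 and Tubb3 by 0.42. The part of these cell types in the differences of the 31 genes was not tested, and in such bulk libraries fewer cells of a type and less RNA per cell cannot be told apart. Col1a1 is in both the ligand and the fibroblast lists, and Myl9 in both the actomyosin and the smooth muscle lists.

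**Figure D5:**
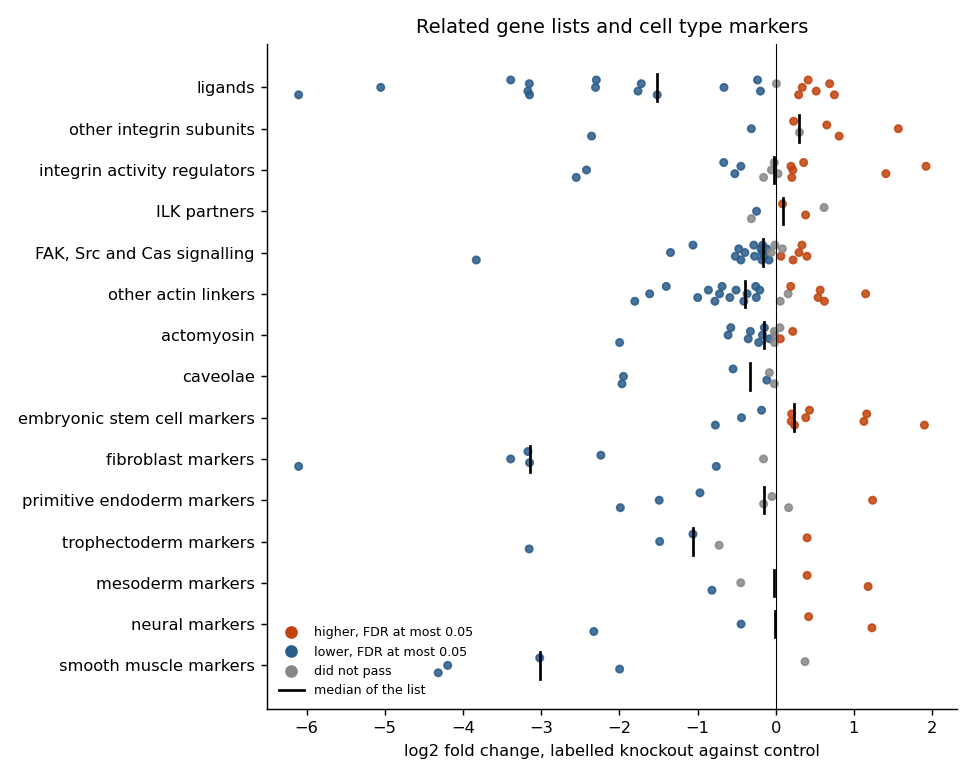
Log2 fold change (x axis, libraries labelled knockout against control) of each tested gene of the related lists and of the cell type markers (y axis), coloured by call, with the median of each list as a black line. The medians run from -3.15 for fibroblast markers to 0.30 for the other integrin subunits. The fibroblast markers include Postn, Dcn and Col3a1, which could be tested only because they were higher in the control libraries.

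The libraries of a group were much alike, with a coefficient of variation of 2.00%, so small differences were called. Whether so small a spread holds all the variation between independent clones was not tested. With edgeR's exact test in place of the quasi-likelihood test and the dispersion of every gene fixed at 0.16, 8.65% of all genes tested were called, and 6 of the 30 genes remained called, Itga8, Itga11, Itgb4, Zyx, Parva and Cav1, all lower in the libraries labelled knockout. Itga11 and Cav1 entered the test only through the control libraries, so a fall was the only direction open to them.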

How the data were processed

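Fragments per gene were measured in 6 mESC libraries, 3 per group. The authors sequenced pairs of reads, removed rRNA reads with Bowtie2 2.1.0, mapped the others to mm10 with TopHat2 2.0.10 and counted sense fragments of GENCODE genes with HTSeq 0.6.1, discarding fragments of multiple genes or locations (CASAVA 1.8.2 is also named in the submitters' processing notes). The deposited values are these raw counts, with no normalization. Fragments shared with near-identical copies are therefore missing.

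Symbols and longest-transcript lengths came from GENCODE M21 by identifier (42425 of 43309 genes matched), and start regions from RefSeq (GRCm38.p6). Genes that reached 10 counts in any library were tested in R 4.3.3 with edgeR 4.0.16 (TMM, glmQLFit and glmQLFTest, no covariate), with a Benjamini-Hochberg FDR of at most 0.05 over all genes tested. The SE is the absolute log2 fold change over the root of the F statistic. Interval bounds of ratios cover counting error only, since PCR duplicates were not marked. Shares and ratios were compared by an exact permutation test.

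The members, related lists and markers were chosen with earlier results of these data known. All members are named, those with a mean count of 50 or more and a called difference of 0.5 or more (log2) with each library's value. Each related list has at most its 2 largest rises and 2 largest falls named, among called genes whose mean count was 100 or more. The cell type markers named were picked after their values were seen. The study describes the lines as clones derived independently, so replicates were taken to be lines. The SE and FDR values rest on the spread of 2.00% between these libraries, and would be too small if it leaves out variation between clones. Alternatives were DESeq2 1.42.0, other scalings and filters, fixed dispersions, merged exon length, a replicate block and leaving out each library.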

Additional observations from a re-analysis of the deposited data

How the results depend on the processing

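Counts of genes called kept within 1.5 times under DESeq2, other scalings and filters, a minimum length of 200 bp and without each library in turn. Leaving out 1 library, genes called ranged from 11059 to 11304, the integrin and focal adhesion genes called higher from 2 to 3 and lower from 23 to 25, and the related genes called from 92 to 93, against 96. Itga1 lost its call without control replicate 1 (FDR 0.121), control replicate 3 (0.0520) or knockout replicate 3 (0.157), and Itga4 without control replicate 3 (0.0982), knockout replicate 1 (0.0647) or knockout replicate 2 (0.0572). Itga6 gained one without control replicate 1 (0.0436) or knockout replicate 1 (0.0286). Rsu1 lost its call when any library but knockout replicate 1 was left out (FDR 0.0502 to 0.0958), and Cdc42 without control replicate 1 (0.0653), control replicate 2 (0.105) or knockout replicate 2 (0.128). With total counts as the scaling Pxn passed (log2 fold change -0.09, FDR 0.0154), and the calls of Rsu1 (0.345) and Cdc42 (0.702) were lost. With at least 10 counts in 3 libraries Itga11 was not tested.

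With a minimum difference of 1 on the log2 scale 2865 genes were called, 1 of the integrin and focal adhesion genes higher and 10 lower, and 27 of the related genes. The 10 include Itga4, Itga11 and Cav1. In edgeR's exact test with the dispersion fixed at 0.01, 7602 genes were called, with 2 of the 30 higher and 17 lower. With it fixed at 0.16, 1456 were called, with 0 higher and 6 lower (1 and 10 at an unadjusted p under 0.05), 24 of the related genes, and Zbtb24 did not pass (log2 fold change 0.99, FDR 0.262). Of the 1456 genes, 23.1% were higher in the libraries labelled knockout. The 6 lower genes include Itga11 and Cav1, which entered only through the control libraries. With merged exon lengths the Itga6 share rose by 9.51 percentage points instead of 11.1, and the Itga9 share by 4.14 instead of 2.91.

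The replicate numbers are shared by the groups. Deviations of same-numbered libraries correlated with r = 0.014, 0.074 and 0.015 over 12360 genes, and those of differently numbered libraries with r from -0.07 to 0.052. These values show no pairing but cannot exclude one, since the deviations also hold counting noise. The fit with a replicate block called 11801 genes, with 2 of the 30 higher and 25 lower, the same genes as without it.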
